A study of Mus musculus with 12 samples.

Results

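The p53 targets and apoptosis regulators described here are 35 genes, followed in 12 RNA sequencing libraries of HL-1, a mouse cell line that goes back to the muscle of the atrium. They were chosen by symbol as p53 itself, its direct targets, BCL2 family members, caspases and caspase inhibitors, out of 23184 gene symbols in the table that the authors deposited. The series asked which genes are related to the expression of Wdr62, a protein of the spindle pole, and the 35 genes show where p53 and cell death transcripts stood when it was targeted. There were 3 groups of 4 libraries, all grown in DMEM with fetal bovine serum. Control cells (CON, genotype WT) had been given virus carrying the empty vectors pCDH and lentiCRISPRv2. Knockdown cells (KD, genotype WDR62-) had been given virus with a guide RNA against Wdr62. Re-expression cells (RE, genotype WDR62+) were KD cells given a further virus, pCDH-WDR62-WT-flag. The labels name the pCDH backbone in CON and RE but do not mention it for KD. Nothing in the labels says whether a group is a clone or a pool, or whether its 4 libraries are separate cultures. The p-values therefore reflect the spread among these libraries, and this spread may be technical. In such bulk samples, fewer cells of a type and less RNA per cell cannot be told apart.

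The transcription factor p53, encoded by Trp53 in the mouse, is kept low by the ubiquitin ligase Mdm2, which is itself a p53 target, and is stabilised by DNA damage or by a prolonged mitosis. It then switches on genes of cell cycle arrest, such as Cdkn1a, of DNA repair, and of death, such as Bax, Bbc3 and Pmaip1. BH3-only proteins bind and block anti-apoptotic BCL2 proteins or activate Bax and Bak1, which open the outer mitochondrial membrane, whereas Fas starts death at the cell surface through caspase 8. HL-1 cells descend from an atrial tumour of mice carrying a polyomavirus large T antigen, a protein that binds p53.

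The values are TPM, a measure of relative transcript abundance, so they are scaled for transcript length and levels can be set side by side between genes. Every column summed to 1000000, so the table keeps no sequencing depth, the depth is unknown, and no counting interval is given. Each library listed from 14060 to 14733 genes at a value above 0. CON 4 was low in long transcripts: over the 2268 tested genes with the longest transcripts its median deviation from the CON mean was -1.07 on the log2(TPM + 1) scale, against 0.20 to 0.46 in the other 3 control libraries. KD 3 had a median of -0.45. The RE group split, with RE 3 at -0.48, RE 1 at -0.23, RE 2 at 0.36 and RE 4 at 0.35. Of 18 cardiac markers, 7 had a mean of at least 1 TPM. Actc1, Actn2 and Myl7 were listed at 0 in every library, and Nppa and Myh6 did not exceed 0.443 and 0.209 TPM. Tnnt2 lay between 12.9 and 26.7 TPM, Gja1 between 410 and 949 and Des between 284 and 632. The summed level of the 18 cardiac markers, most of it Gja1 and Des, was 1097 to 1200 TPM in CON, 1105 to 1287 in KD and 813 to 1182 in RE. The fibroblast collagen gene Col3a1 lay between 1190 and 3455 TPM. The summed level of the 8 fibroblast markers, most of it Col3a1, was 2752 to 4265 TPM in CON, 2953 to 4252 in KD and 1560 to 2525 in RE. Single fibroblast markers differed from that sum. Lum was listed at 0 in every library, and Thy1 did not exceed 0.072 TPM. Dcn had 23.6 to 81.4 TPM in CON, 4.10 to 6.18 in KD and 2.67 to 4.11 in RE, and Col1a1 78.3 to 107.6, 41.8 to 64.5 and 21.02 to 33.5, each without overlap of CON with KD, whereas Pdgfra had 14.7 to 50.7, 44.2 to 73.2 and 16.7 to 42.6. The summed level of 7 skeletal muscle markers was 24.3 to 42.9 TPM in CON, 8.90 to 12.01 in KD and 10.4 to 16.1 in RE, so that CON stood above the other groups. Among them Myod1 had 4.27 to 8.18 TPM in CON and at most 0.133 in KD and RE. The part of these markers in the results was not tested.

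Wdr62, the targeted gene, had 7.46, 6.61, 6.50 and 3.38 TPM in CON, 1.40, 0.944, 1.37 and 0.881 in KD, and 1.47, 0.772, 0.827 and 1.99 in RE. Its transcript was lower in KD than in CON in every library (log2 difference -1.67 ± 0.25 SE, limma adjusted p = 0.000921). The exact two-sided permutation test gave p = 0.0286, the smallest that 4 against 4 libraries allow. RE overlapped KD and was below every CON library, and RE differed from KD by 0.05 (95% interval -0.48 to 0.58, adjusted p = 0.895). The species of the construct is not stated, so this value is no measure of the WDR62 protein in RE.

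To show what p53 can read in these genes, their promoters were searched for the p53 half-site, the 10-base consensus to which a pair of p53 molecules binds. RefSeq start sites on GRCm38.p6 were available for 28 of the 35 genes, and the 250 bases before each start were read. A half-site lay before at least 1 start of 9 of these 28 genes, against 8.20% of all 27025 genes in the RefSeq table. All 9 were among 14 scanned genes that are p53 or its targets, with Bax, Bbc3 and Fas counted as targets, and the other 5 of these held none. None of the 14 scanned members outside that set held one, and the 7 members with no window were all p53 targets. The consensus reads the same on both strands. Each stretch below is in the direction of the gene, with the half-sites in capitals, and is shown as an example of the letters found before starts of Trp53 and p53 target genes.
Cdkn1a (chr17:29090886-29090957, plus strand): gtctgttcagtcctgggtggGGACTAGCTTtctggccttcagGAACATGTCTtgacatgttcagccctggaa
Mdm2 (chr10:117710915-117710964, minus strand): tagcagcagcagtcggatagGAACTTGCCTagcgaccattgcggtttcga
Ccng1 (chr11:40755442-40755491, minus strand): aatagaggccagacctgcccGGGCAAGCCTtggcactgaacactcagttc
Sesn1 (chr10:41887246-41887295, plus strand): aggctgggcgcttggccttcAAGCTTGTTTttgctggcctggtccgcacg
Gadd45a (chr6:67037418-67037467, minus strand): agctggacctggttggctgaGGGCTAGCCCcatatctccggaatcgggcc
Bax (chr7:45467070-45467119, minus strand): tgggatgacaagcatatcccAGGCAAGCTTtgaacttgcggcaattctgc
Trp53 (chr11:69580264-69580313, plus strand): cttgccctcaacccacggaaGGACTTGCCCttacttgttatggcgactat
The stretch of Cdkn1a precedes the upstream of its 2 RefSeq starts and holds 2 exact half-sites 12 bases apart. The 10 bases directly after the second miss the consensus only at their first base, so they are not in capitals. Which of these p53 binds is not shown by the letters. The stretch of Sesn1 lies inside the span of the gene, before an internal start. A pair of half-sites at most 13 bases apart occurred before the start of 0.067% of all genes in the table, and Cdkn1a was the only such member. The other 2 genes with a half-site were Aen and Ei24. Fas, which had the smallest adjusted p of the tested members in KD against CON with all libraries, held none in this window, which says nothing of sites elsewhere. A match is a description of letters and not of binding.

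Of the 35 genes, 33 had a mean of at least 1 TPM over the 12 libraries and were tested. The pro-death gene Pmaip1 fell below this level, and Perp, a p53 target of desmosomes, was listed at 0 in every library. In CON, 11 members stood above 100 TPM, 17 between 10 and 100, 5 between 1 and 10 and 2 below 1. Cdkn1a, which encodes the CDK inhibitor p21, was the most abundant at 407 ± 24.3 TPM (SD, n = 4), followed by Bax at 282 ± 71.4, Gadd45a at 237 ± 52.9, Phlda3 at 192 ± 41.7 and Trp53 at 185 ± 26.04. From Bax to Trp53, neighbours in this order differed by less than the larger of their SDs.

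KD was set against CON to ask what followed the guide against Wdr62. Among the 33 tested members, 2 rose and 0 fell by limma's moderated test with Benjamini-Hochberg adjustment over all 11774 tested genes: the death receptor gene Fas and the stress gene Sesn1. This is 6.06% of the members, against 10.2% of all tested genes, of which 6.60% rose and 3.61% fell. At an unadjusted p below 0.05 there were 5 of 33, against 23.8% of all tested genes. The median difference was 0.00 over the members and -0.01 over all tested genes, with 16 members above 0 and 17 below. The KD and CON libraries did not overlap in 6 tested members, 5 higher and 1 lower in KD (Bbc3). The same held for 18.9% of all tested genes, 11.9% higher and 7.02% lower. Without CON 4, 3 members rose and 3 fell, against 20.4% of all genes. Without CON 4, RE 1 and RE 3 together 4 rose and 8 fell, against 39.6%. That omission kept KD 3, whose median deviation over long transcripts (-0.45) was lower than that of RE 1 (-0.23). Single-gene calls from it are to be read beside the share of 39.6%.

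Fas had 44.0, 49.1, 46.9 and 54.1 TPM in CON, 95.1, 94.8, 88.3 and 94.1 in KD, and 75.1, 81.2, 118 and 68.0 in RE. Every KD library was above every CON library, and so was every RE library. Fas (chr19:34290666-34327772, plus strand, GRCm38) encodes the receptor through which Fas ligand triggers caspase 8. It rose in KD by 0.93 ± 0.16 on the log2 scale (adjusted p = 0.00312) and was higher in RE than in CON by 0.78 ± 0.16 (adjusted p = 0.0128). The first call was lost only with median-of-ratios scaling (0.91, adjusted p = 0.0531) and where a log2 difference of 1 was required. The second was lost without CON 1 (adjusted p = 0.0527), in a fit of the compared groups alone (0.0746) and with the same required difference. RE differed from KD by -0.15 (95% interval -0.51 to 0.20, adjusted p = 0.511), and by 0.18 with median-of-ratios scaling (adjusted p = 0.670).

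Sesn1 (chr10:41809935-41908424, plus strand), whose product sestrin 1 restrains mTORC1 under stress, had 68.3, 61.2, 60.9 and 34.5 TPM in CON, 174, 163, 74.6 and 134 in KD, and 47.2, 70.9, 55.3 and 71.9 in RE. The KD libraries all lay above the CON and the RE libraries, although KD 3 at 74.6 TPM was close to RE 4. The rise in KD was 1.24 ± 0.28 (adjusted p = 0.0148). It was lost without KD 1 (1.10, adjusted p = 0.0565) or KD 2 (1.13, adjusted p = 0.0563). RE stood below KD by -1.09 with a 95% interval of -1.71 to -0.47, which did not pass over all genes (adjusted p = 0.0794) but did without CON 4 (adjusted p = 0.0297) and without KD 3. With a correction for transcript length it was -0.72 (adjusted p = 0.0590). RE differed from CON by 0.15 (-0.47 to 0.76, adjusted p = 0.717).

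**Figure D1:**
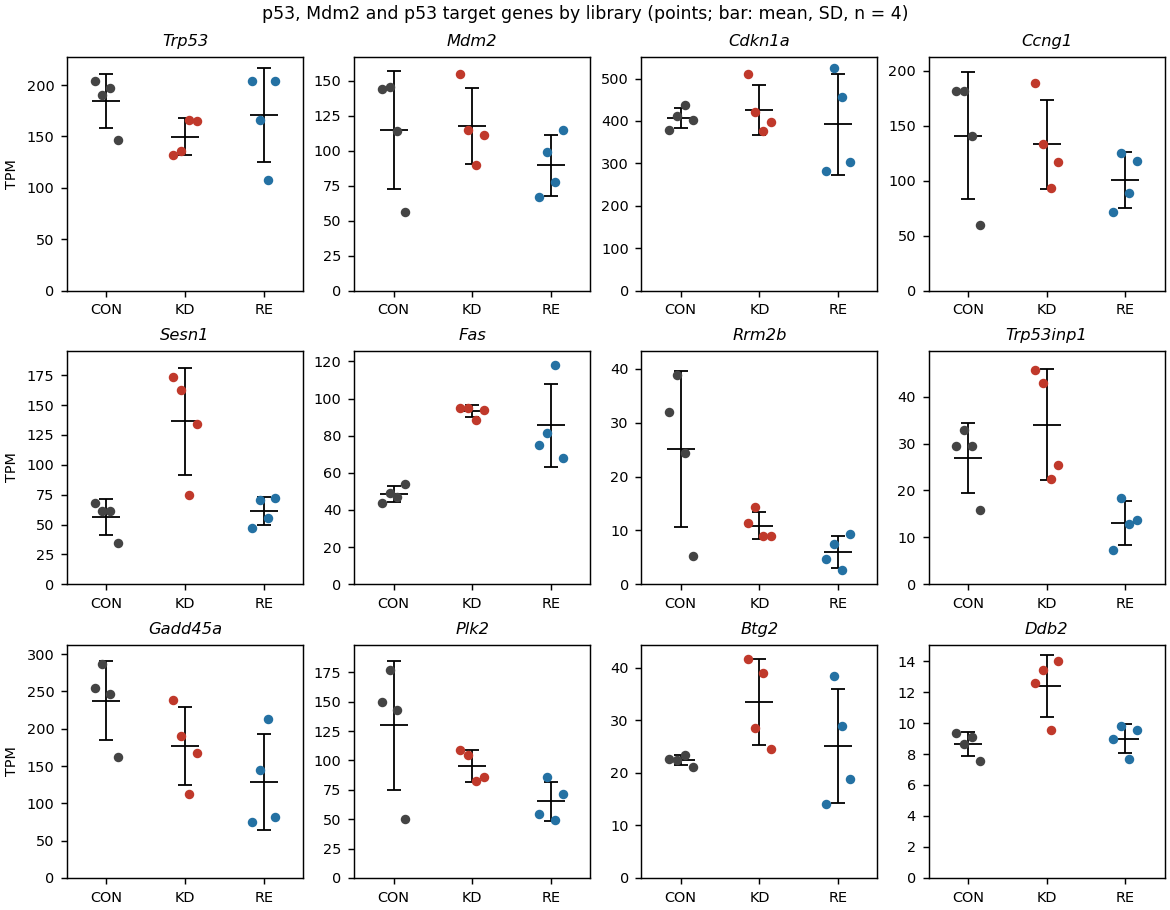
TPM of Trp53, Mdm2 and 10 p53 target genes in each library, libraries 1 to 4 from left to right within a group, with the mean and SD of each group (n = 4) and a separate axis from 0 for each gene. Fas and Sesn1 separate KD from CON, Cdkn1a and Mdm2 overlap in all groups, and CON 4 is the lowest control library for Mdm2, Ccng1, Plk2 and Rrm2b.

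The core of the pathway did not pass the test. Trp53 had 204, 191, 198 and 147 TPM in CON, 132, 136, 166 and 165 in KD, and 204, 166, 108 and 204 in RE. The groups overlapped, and KD differed from CON by -0.30 (95% interval -0.74 to 0.14, adjusted p = 0.439). Without CON 4, RE 1 and RE 3 this was -0.40 with an adjusted p of 0.0209, in a fit where 39.6% of all genes passed. Mdm2 had 144, 146, 114 and 55.9 TPM in CON, 155, 115, 89.5 and 111 in KD, and 66.6, 98.8, 77.7 and 115 in RE, with overlapping groups (0.10, interval -0.54 to 0.75, adjusted p = 0.908). Cdkn1a had 379, 411, 438 and 402 TPM in CON, 510, 420, 376 and 397 in KD, and 281, 525, 457 and 304 in RE. The control libraries of Cdkn1a lay within the range of the KD and RE libraries, and the interval of the KD difference, -0.36 to 0.47 around 0.06, leaves room for a change of less than 0.5 in either direction (adjusted p = 0.926).

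Other p53 targets that act in arrest and growth were spread in both directions. Btg2, an antiproliferative gene, had 21.1 to 23.4 TPM in CON and 24.6 to 41.7 in KD, without overlap, and missed the threshold (0.53, adjusted p = 0.284). Ccng1 for cyclin G1, Gadd45a of the damage response and the polo-like kinase gene Plk2 overlapped between KD and CON, with differences of -0.00, -0.44 and -0.31 (adjusted p = 0.998, 0.497 and 0.665). Without CON 4, Plk2 was called lower in KD (-0.72, adjusted p = 0.0232) and in RE against CON (-1.28, adjusted p = 0.000786, against -0.88 and 0.134 with all libraries). In RE, Gadd45a had 74.8, 145, 213 and 81.1 TPM, against 255, 287, 246 and 162 in CON, a difference of -0.98 that did not pass (adjusted p = 0.105). RE 3 alone overlapped the controls. The difference passed without CON 4 (-1.16, adjusted p = 0.0141) and without RE 3.

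Among targets of DNA repair and nucleotide supply, Ddb2, which recognises ultraviolet damage, had 7.57 to 9.33 TPM in CON, 9.52 to 14.0 in KD and 7.65 to 9.79 in RE. KD lay just above CON in every library, at 0.46 (interval 0.09 to 0.84, adjusted p = 0.121), and the difference passed with the length correction (0.44, adjusted p = 0.0210). Ddb2 shares 652 exon bases with Acp2 (35.4 TPM) on the opposite strand, and their reads cannot be told apart where strand is unknown. Rrm2b, the p53-induced ribonucleotide reductase subunit, had 32.1, 38.9, 24.3 and 5.23 TPM in CON, 11.4, 14.3, 8.97 and 8.88 in KD, and 4.69, 7.54, 2.59 and 9.25 in RE. The first 3 control libraries lay above every KD and RE library, and CON 4 lay among the RE libraries. With all libraries the KD difference was -0.87 (adjusted p = 0.355) and the RE difference from CON -1.72 (adjusted p = 0.0745). Without CON 4 both passed, at -1.46 (adjusted p = 0.00949) and -2.31 (adjusted p = 0.000516), and the RE difference also passed with a correction for transcript length (-1.27, adjusted p = 0.0176) and with median-of-ratios scaling (-1.44, adjusted p = 0.0359). The repair gene Xpc differed by 0.10 in KD (adjusted p = 0.907).

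The remaining targets gave no call in KD. Zmat3, Aen and Ei24, an RNA-binding protein, a nuclease and a protein of the endoplasmic reticulum, differed by 0.04, -0.05 and -0.00 (adjusted p = 0.973, 0.962 and 0.998). Ei24 lay between 48.8 and 61.0 TPM over the 12 libraries. Phlda3, which inhibits Akt, differed by -0.31 (adjusted p = 0.282). Trp53inp1, a stress-induced partner of p53, had 22.4 to 45.6 TPM in KD and 7.29, 18.5, 12.7 and 13.7 in RE. Every RE library of Trp53inp1 was below every KD library, and the difference of -1.32 missed the threshold (interval -2.02 to -0.61, adjusted p = 0.0706). It passed without CON 4, KD 3 or RE 2, that is in 3 of the 12 fits that left out 1 library. The length-corrected difference was -0.72 (adjusted p = 0.0729). RE differed from CON by -1.01 (adjusted p = 0.0915), by -1.23 without CON 4 (adjusted p = 0.00701) and by -0.44 with the length correction (adjusted p = 0.158).

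The BCL2 family gave no call in KD against CON. The effectors Bax and Bak1 differed by -0.30 and -0.17 (adjusted p = 0.345 and 0.644). Bax had 243, 244, 251 and 388 TPM in CON, 217, 204, 248 and 228 in KD, and 391, 294, 398 and 289 in RE. All RE libraries were above all KD libraries, at 0.60 (interval 0.22 to 0.98, adjusted p = 0.1005; 0.0297 without CON 4), while CON 4 stood with the RE libraries. The anti-apoptotic gene Bcl2l1 for BCL-XL had 55.5, 54.0, 55.7 and 48.2 TPM in CON, 86.8, 76.1, 59.4 and 81.7 in KD, and 49.1, 70.4, 65.0 and 60.3 in RE. Its KD and CON libraries did not overlap, and the difference of 0.49 ± 0.16 missed the threshold (interval 0.15 to 0.83, adjusted p = 0.0679). It passed with the length correction (0.47, adjusted p = 0.0386) and without CON 4, RE 1 and RE 3 (0.44, adjusted p = 0.0255). Mcl1, whose protein turns over quickly, had 152, 176, 151 and 122 TPM in CON, 145, 138, 152 and 133 in KD, and 119, 133, 100.4 and 160 in RE, with overlapping groups (-0.08 in KD, interval -0.42 to 0.26, adjusted p = 0.859).

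Bbc3 and Pmaip1, the BH3-only genes that p53 induces, had their lowest libraries outside CON. Bbc3 for PUMA had 11.6, 8.51, 9.45 and 9.92 TPM in CON, 3.76, 7.67, 6.82 and 5.23 in KD, and 4.47, 8.92, 7.42 and 5.59 in RE. Every KD library was below every CON library (-0.69, interval -1.22 to -0.16, adjusted p = 0.0974), and the difference passed with the length correction (-0.71, adjusted p = 0.0375) and without CON 4, RE 1 and RE 3 (-0.69, adjusted p = 0.0423). Pmaip1 for NOXA had 0.770, 0.865, 0.866 and 0.670 TPM in CON, 0.253, 0.194, 0.348 and 0.0830 in KD, and 0.256, 0.0938, 0.133 and 0.269 in RE. Both KD and RE lay wholly below CON at this low level. An exact two-sided permutation test of the 4 against 4 log2(TPM + 1) values gave p = 0.0286 for each, the smallest this design allows (0.0429 adjusted over the 3 comparisons), and p = 0.714 for RE against KD. The differences were -0.56 for KD and -0.60 for RE. With no TPM filter limma called both, with adjusted p = 0.000811 and 0.000626.

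**Figure D2:**
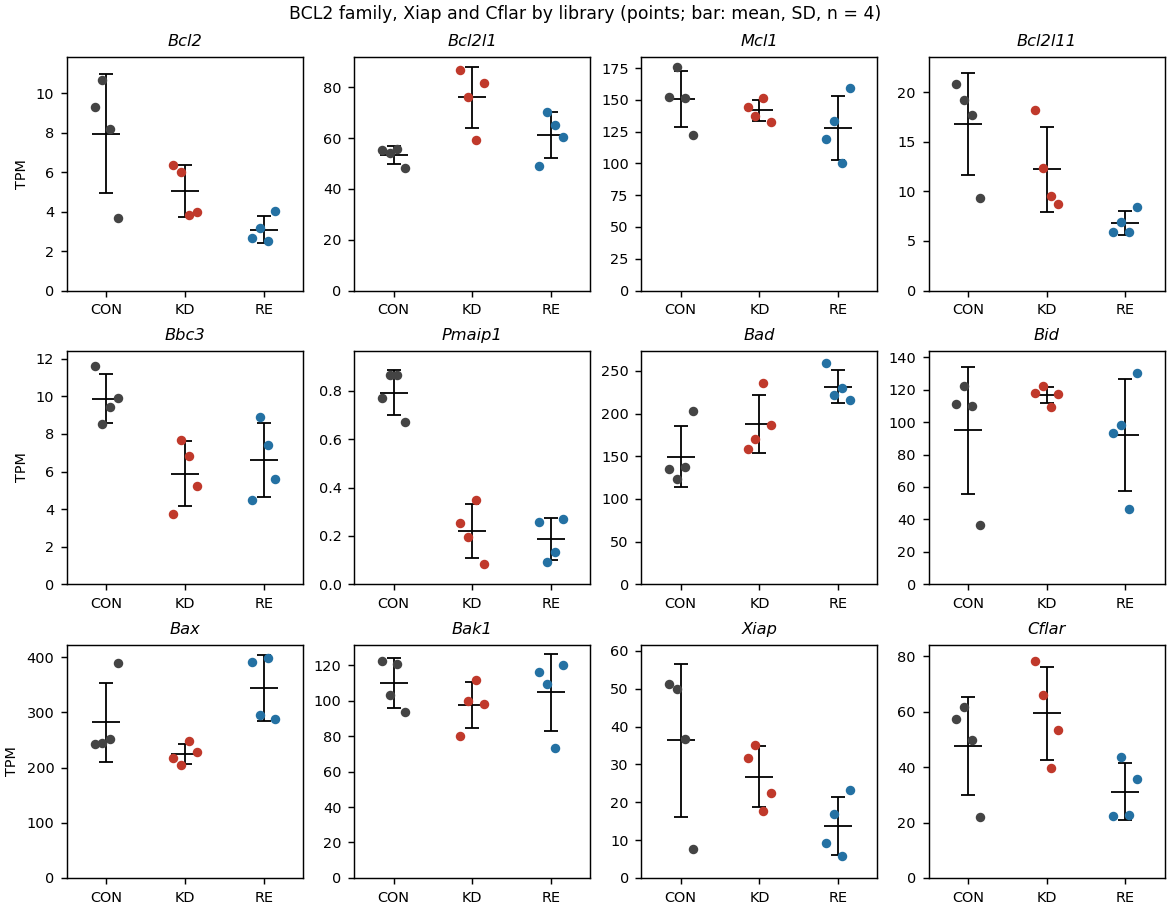
TPM of 10 BCL2 family genes, Xiap and Cflar in each library, libraries 1 to 4 from left to right within a group, with the mean and SD of each group (n = 4) and a separate axis from 0 for each gene. Bbc3 and Pmaip1 are lower in every KD than in every CON library, Bcl2l1 is higher, and Bcl2, Bcl2l11 and Bad step from CON over KD to RE in their means.

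RE was set against CON and against KD. By the labels, RE cells differ from KD cells by the further WDR62 virus, and from CON cells by the guide against Wdr62 as well. RE against CON therefore does not isolate the WDR62 virus. In RE against CON, 2 of the 33 members were higher (Fas and Bad) and 2 lower (Bcl2 and Bcl2l11), 12.1% of the members against 6.33% of all tested genes (2.70% higher, 3.63% lower). At an unadjusted p below 0.05 there were 10, against 28.4% of all tested genes. The RE and CON libraries did not overlap in 3 tested members, 2 higher (Bad and Fas) and 1 lower (Bcl2l11), and in 9.22% of all tested genes, 4.46% higher and 4.76% lower. The median difference was -0.26 over the members and -0.27 over all tested genes. Median-of-ratios scaling brings such a common shift near 0 by construction (0.01 over all genes). Under it 1 member was higher and 3 lower. All 4 calls were lost in a fit of RE and CON alone, where 3.47% of all genes passed. Without CON 4, 3 members were higher and 14 lower, against 52.8%.

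Bcl2, the founding anti-apoptotic gene, had 9.28, 10.6, 8.18 and 3.66 TPM in CON, 6.36, 5.99, 3.85 and 3.99 in KD, and 2.66, 3.17, 2.498 and 4.01 in RE. All RE libraries lay below CON 1 to CON 3, and CON 4 fell among them. RE was lower than CON by -1.07 ± 0.28 (adjusted p = 0.0452), a call lost on omitting any 1 of 11 of the 12 libraries, with either other TPM filter and with the length correction (-0.32, adjusted p = 0.172). Without CON 4, RE was lower by -1.35 (adjusted p = 0.00104) and KD by -0.80 (adjusted p = 0.0225, against -0.51 and 0.319 with all libraries). The KD difference also passed with the length correction (-0.51, adjusted p = 0.0326).

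Bcl2l11, which encodes the BH3-only protein BIM, had 20.8, 19.3, 17.7 and 9.29 TPM in CON, 18.3, 12.3, 9.58 and 8.73 in KD, and 5.92, 6.88, 5.92 and 8.44 in RE. The RE libraries lay below all others. RE was lower than CON by -1.15 ± 0.28 (adjusted p = 0.0298), a call lost in 6 of the 12 fits without 1 library (largest adjusted p 0.111, on omitting CON 1) and in the fit of RE and CON alone. RE against KD gave -0.72 (interval -1.33 to -0.11, adjusted p = 0.151; 0.0407 without CON 4). With the length correction RE differed from CON by -0.63 (adjusted p = 0.0195) and from KD by -0.17 (adjusted p = 0.486). KD was called lower than CON without CON 4, RE 1 and RE 3 (-0.67, adjusted p = 0.0389, against -0.42 and 0.422 with all libraries).

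Bad, a BH3-only gene whose protein is held inactive by phosphorylation, had 135, 123, 137 and 203 TPM in CON, 159, 171, 236 and 187 in KD, and 259, 221, 230 and 216 in RE. Every RE library was above every CON library, with CON 4 the closest. RE was higher than CON by 0.65 ± 0.17 (adjusted p = 0.0438). The difference was 0.96 with median-of-ratios scaling, where it missed the threshold (adjusted p = 0.0705). The call was also lost in 10 of the 12 omissions of a single library (largest adjusted p 0.157, when CON 2 was omitted). KD was called higher than CON without CON 4 (0.49, adjusted p = 0.0325, against 0.34 and 0.266 with all libraries). Bad shares 524 exon bases with Gpr137 (51.4 TPM) on the opposite strand, so the same limit holds as for Ddb2.

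In RE against KD, 0 of the 33 members passed by limma, and 7 had an unadjusted p below 0.05, against 28% of all tested genes. Of all tested genes 1.04% passed the adjusted threshold, 0.187% higher and 0.858% lower. The RE and KD libraries did not overlap in 4 tested members, 1 higher (Bax) and 3 lower (Sesn1, Trp53inp1 and Bcl2l11), and in 14.3% of all tested genes, 3.47% higher and 10.8% lower. The median was -0.41 over the members and -0.29 over all genes. With median-of-ratios scaling it was -0.10 and 0.00, and with the length correction -0.08 and 0.01. Both adjustments centre the libraries, so a value near 0 over all genes follows from them. Besides Sesn1, Trp53inp1 and Bax, the members with an unadjusted p below 0.05 were Bcl2l11, Birc2, Cflar and Ddb2, all of them lower in RE except Bax. The 4 KD libraries are shared by this comparison and the first, so the low Sesn1 of RE against KD and the high Sesn1 of KD against CON rest on the same libraries. Without CON 4, whose spread enters the shared estimate, 1 member was higher (Bax) and 6 lower in RE, against 23.8% of all genes.

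**Figure D3:**
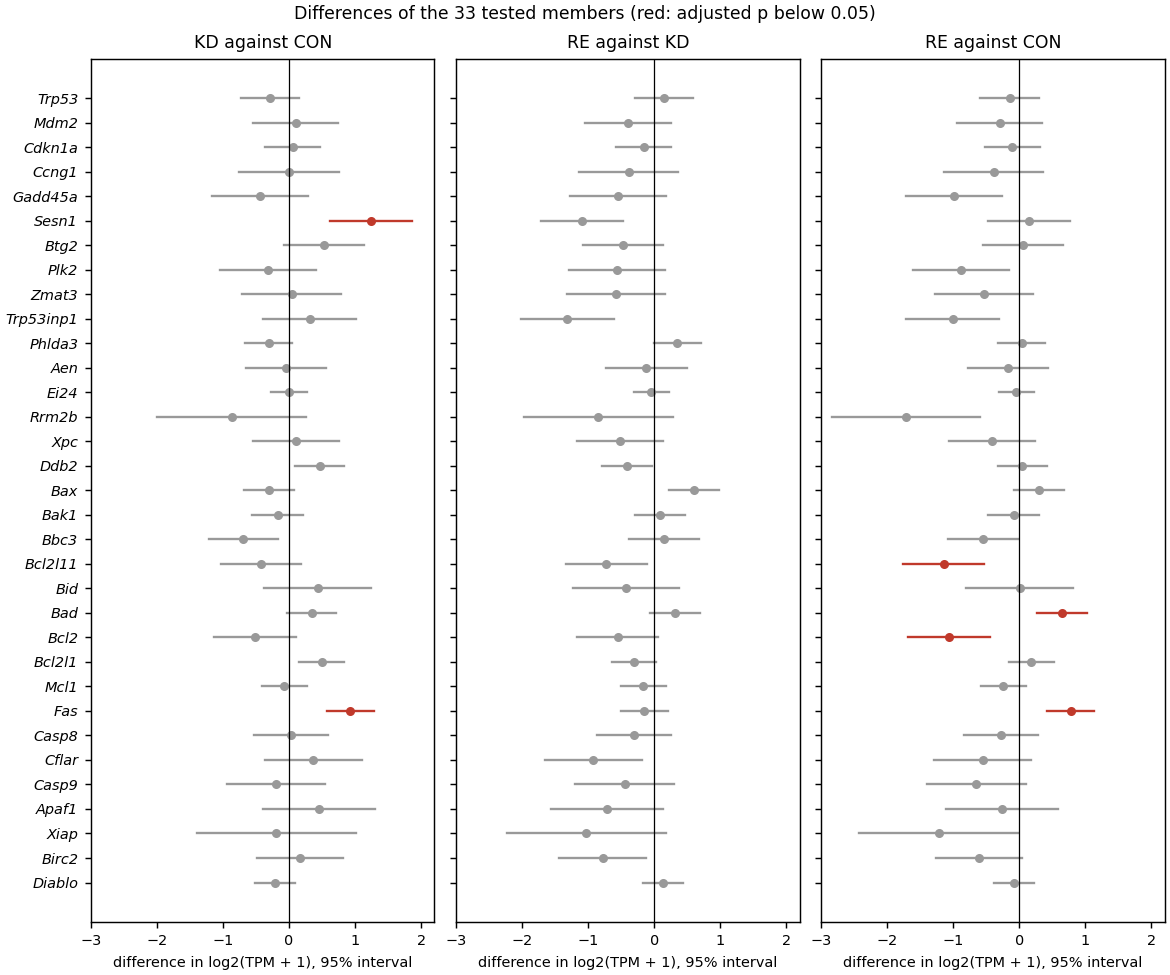
Differences of the 33 tested members in log2(TPM + 1) with their 95% intervals, for KD against CON, RE against KD and RE against CON, from the fit of all 12 libraries; red marks an adjusted p below 0.05 over 11774 genes. Fas and Sesn1 are red in the first panel, no member in the second, and Bcl2l11, Bad, Bcl2 and Fas in the third.

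The machinery below the mitochondria and the death receptor was, apart from Fas itself, without a call in the fit of all 12 libraries. With the length correction Apaf1 and Cflar were called higher in KD (0.44 and 0.35, adjusted p = 0.0335 and 0.0326). Without CON 4, Xiap, Casp9, Birc2 and Cflar were called lower in RE than in CON (-1.82, -0.95, -0.85 and -0.88, adjusted p = 0.00367, 0.0172, 0.0185 and 0.0171), against -1.22, -0.65, -0.61 and -0.55 with all libraries. Casp8, the initiator caspase that the adaptor FADD brings to Fas, lay between 16.6 and 41.7 TPM over all libraries, and its KD difference was 0.03 (interval -0.53 to 0.59, adjusted p = 0.973). Cflar, the inhibitor that competes with caspase 8, had 57.4, 61.6, 49.9 and 22.0 TPM in CON, 78.5, 66.1, 39.6 and 53.3 in KD, and 22.4, 43.8, 22.8 and 35.7 in RE. RE and KD overlapped only in that RE 2 exceeded KD 3 (-0.92, interval -1.66 to -0.18, adjusted p = 0.142; 0.0364 without CON 4), and with the length correction the difference was -0.22 (adjusted p = 0.215). Casp9 and Apaf1, which form the apoptosome with cytochrome c, differed by -0.20 and 0.45 in KD (adjusted p = 0.821 and 0.562). Of the caspase inhibitors, Xiap ranged from 5.84 to 51.2 TPM and Birc2 from 6.73 to 21.1. In KD they differed by -0.19 and 0.17, with adjusted p = 0.907 and 0.826. Without CON 4, RE 1 and RE 3, Xiap and Casp9 were called lower in KD (-0.79 and -0.50, adjusted p = 0.0242 and 0.0496). Diablo, the mitochondrial antagonist of these inhibitors, stayed between 47.4 and 68.2 TPM. Bid, which links caspase 8 to the mitochondria, had 111, 122, 110 and 36.6 TPM in CON and 110 to 122 in KD.

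Bax exceeded Bcl2 by a TPM ratio of 26.2, 22.9, 30.7 and 106 in CON, 34.1, 34.1, 64.6 and 57.2 in KD, and 147, 92.8, 159 and 72.1 in RE. CON 4 had the ratio of an RE library. Bax over Bcl2l1 was 4.37, 4.52, 4.50 and 8.07 in CON, 2.498, 2.68, 4.18 and 2.79 in KD, and 7.97, 4.18, 6.12 and 4.79 in RE, so that the KD libraries were the lowest, with KD 3 level with RE 2. These ratios are given as descriptions with no test, and Bax has a transcript of 1100 bases against 7191 for Bcl2.

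Deviations within a group were ordered by transcript length. The longest annotated transcripts ran from 1100 bases for Bax to 7797 for Zmat3. In CON 4 all 17 members with a transcript of at least 3275 bases were below their CON mean, with a median of -0.86, against -0.13 for the 16 shorter ones. Across the 33 members, Spearman's rho between length and deviation from the group mean was -0.73 in CON 4, -0.62 in KD 3, -0.53 in KD 4, -0.51 in RE 3 and -0.30 in RE 1, and between 0.47 and 0.68 in the other 7 libraries. Deviations within a group cancel out by construction, so the positive values partly mirror the negative ones of the same group. The members share each library, and genes are not independent. Fas, at 1625 bases, was among the shorter members and Sesn1, at 3809 bases, among the longer. Both kept their rise in KD with the length correction (0.92 and 1.22, adjusted p = 0.00196 and 0.000758). With it 6 members rose in KD and 2 fell, against 21.5% of all genes.

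**Figure D4:**
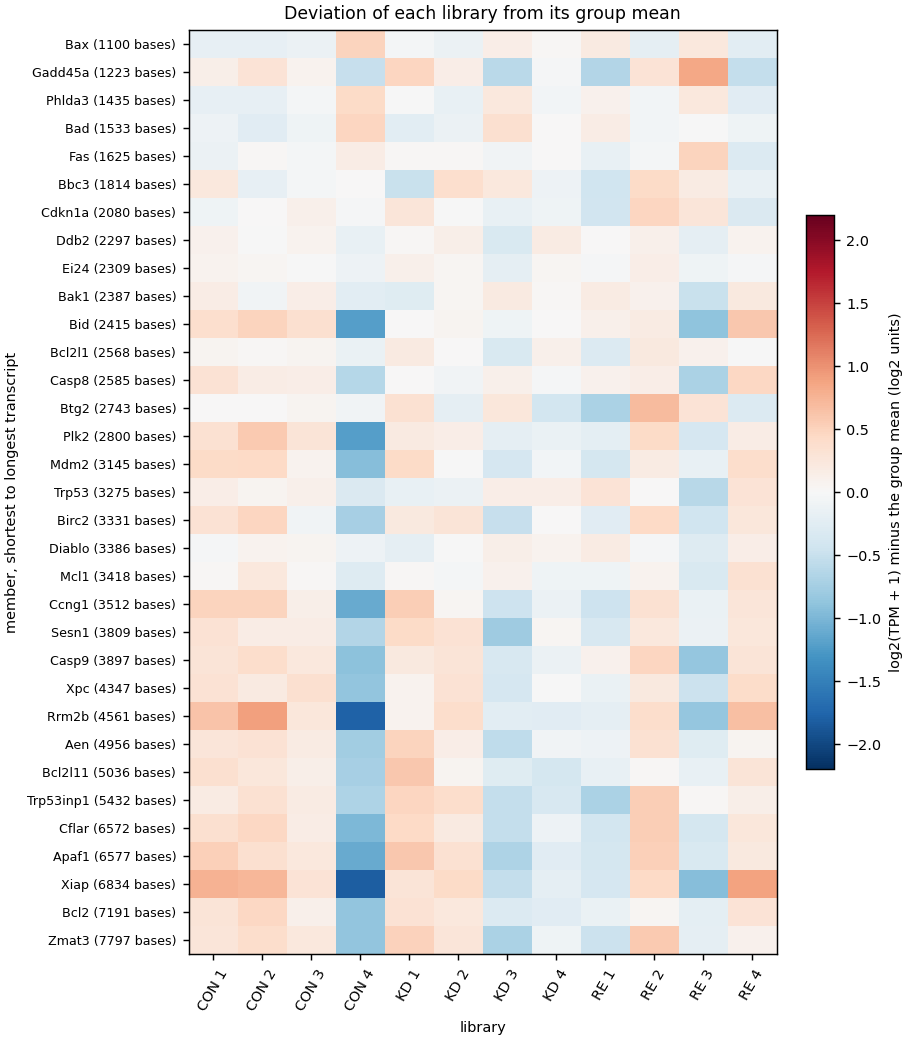
Deviation of each library from its group mean in log2(TPM + 1), for the 33 tested members ordered from the shortest (Bax, 1100 bases) to the longest transcript (Zmat3, 7797 bases). CON 4 is below its group mean in all 17 longer members, with Xiap and Rrm2b the darkest, and above it in 5 of the 16 shorter ones, among them Bax and Bad.

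Beyond the 35 genes, 104 further genes of the pathway were read from 6 lists, of which 84 were tested. In KD against CON 3 of them rose and 1 fell (4.76%, against 10.2% of all tested genes), with a median of -0.06. In RE against KD 2 rose and 0 fell (2.38% against 1.04%), with 3 higher and 1 lower in RE against CON (4.76% against 6.33%). Among 27 tested further p53 targets, 2 rose in KD (7.41%, against 6.60% of all tested genes). Dram1, which promotes autophagy, went from 23.6, 30.5, 28.1 and 19.5 TPM in CON to 138, 129, 69.8 and 113 in KD and 35.6, 102, 77.6 and 51.1 in RE. All KD and RE libraries of Dram1 were above CON (2.07 ± 0.31 in KD, adjusted p = 0.00104; 1.26 ± 0.31 in RE, adjusted p = 0.0305). The call of Dram1 in KD held under all 23 alternatives, and that in RE was lost in 6.

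Sesn2, a relative of Sesn1 that also answers to amino acid shortage, had 76.2, 66.0, 62.8 and 14.7 TPM in CON, 27.7, 39.7, 17.3 and 21.7 in KD, and 9.08, 25.5, 5.80 and 12.5 in RE. It was lower in RE than in CON (-1.93 ± 0.52, adjusted p = 0.0477), a call lost in 14 of 23 alternatives, with CON 4 among the KD and RE libraries. Rps27l, a ribosomal protein relative induced by p53, had 784, 677, 800 and 825 TPM in KD and 1252, 1098, 1485 and 1093 in RE (0.67 ± 0.14, adjusted p = 0.0479), a call lost in 19 of 25 alternatives.

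The list of mitotic surveillance and PIDDosome genes names the proteins through which a delayed mitosis or extra centrosomes reach p53, among them Trp53bp1, Usp28, Pidd1 and Casp2. Of its 7 genes, all tested, 0 passed in any comparison by limma, and the numbers at an unadjusted p below 0.05 were 0, 1 and 2 for KD against CON, RE against KD and RE against CON, where 23.8%, 28% and 28.4% of all tested genes reached it. Their KD differences ran from -0.50 for Plk4 to 0.13 for Trp53bp1. Of 16 tested p53 regulators and cofactors 0 passed in any comparison, with 2, 4 and 5 at an unadjusted p below 0.05. In KD the lowest was Chek1, for a checkpoint kinase, at -1.21 (adjusted p = 0.143).

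Of 18 tested further caspases, inhibitors and mitochondrial factors, 1 rose in KD and 1 fell (11.1%, against 10.2% of all tested genes). Naip2, an inhibitor of the BIR family that senses bacterial proteins, rose from 4.86 to 10.3 TPM in CON to 12.2 to 26.4 in KD (1.19 ± 0.30, adjusted p = 0.0247). Its near relatives may share reads, and omitting CON 1, KD 1, KD 2 or KD 4 each removed the call. Birc5 for survivin, which is both a BIR family protein and a mitotic one, was lower in KD (-0.86 ± 0.21, adjusted p = 0.0214) and higher again in RE against KD (1.08 ± 0.21, adjusted p = 0.0376). It had 282, 262, 236 and 355 TPM in CON, 135, 125, 213 and 157 in KD, and 422, 246, 292 and 372 in RE, and the KD libraries lay below all others. The calls were lost in 7 of 23 and 14 of 25 alternatives. Of 6 tested further BCL2 family genes 0 passed in KD, against 10.2% of all tested genes. At an unadjusted p below 0.05 there were 4 in KD, against 23.8% of all tested genes. In RE against CON 1 was higher (16.7%, against 6.33% called among all tested genes). This was Bnip3, a mitophagy receptor gene, with 48.7, 67.9, 62.3 and 205 TPM in CON against 213, 255, 259 and 245 in RE (1.58 ± 0.37, adjusted p = 0.0255), a call lost in 8 of 23 alternatives. In KD Bnip3 had 145, 150, 291 and 156 TPM, a difference from CON of 1.12 (adjusted p = 0.0818). Without CON 4 this KD difference was 1.57 (adjusted p = 0.000617). Of 12 tested death receptor and necroptosis genes 0 passed in any comparison. For KD against CON, RE against KD and RE against CON, 2, 1 and 1 had an unadjusted p below 0.05. Of all tested genes 23.8%, 28% and 28.4% did.

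The share of members called was set against the share of all genes for every setting. The members' share was the lower one under 22 of 24 settings for KD against CON. For RE against KD it was lower under 24 of 26 settings, mostly with 0 members called, and for RE against CON under 10 of 24. The settings refit largely the same libraries, so these counts are not repeated support. No setting turned the direction of a called member.

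**Figure D5:**
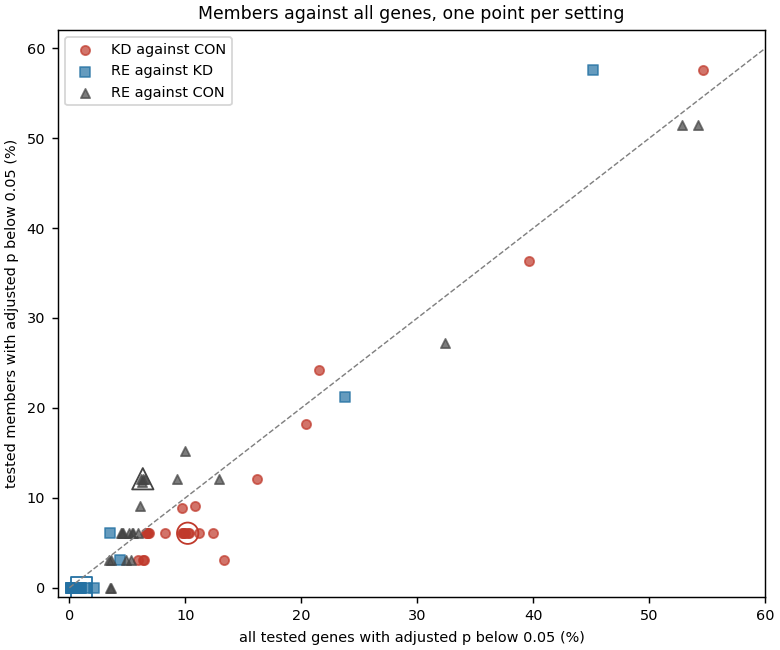
Percentage of tested members with an adjusted p below 0.05 against the same percentage of all tested genes, 1 point for each setting and comparison, with the values of the fit of all 12 libraries ringed and a dashed line where both are equal. With array weights, 57.6% of members and 54.6% of all genes passed in KD against CON, against 6.06% and 10.2% in the ringed fit. The shares did not always rise together. With median-of-ratios scaling, 3.03% of members and 13.3% of all genes passed in KD against CON. The ringed values of RE against CON were 12.1% of members and 6.33% of all genes.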

How the data were processed

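The authors deposited 1 table of TPM values for 12 libraries. Per the submitters' processing notes, Trim Galore 0.6.6, TopHat2 2.1.1, Cufflinks 2.2.1 and the mm10 build were used; how TPM was derived, the annotation and the use of strand are not given in the sources used here. The KD and RE columns matched sample titles. The 4 control columns carry a WT name that fixes the group but not the numbered sample, so CON 1 to CON 4 follow the column names.

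Values were taken as log2(TPM + 1), which understates changes of low genes. The 11774 genes averaging 1 TPM or more were fitted with limma 3.58.1 in R 4.3.3, with a mean for each group, all 12 libraries sharing one variance estimate, and a mean-variance trend. Tests were two-sided, adjusted by the Benjamini-Hochberg method over all tested genes, and called at an adjusted p below 0.05. The fit was tested on simulated data. Their noise was independent between genes and had no shift ordered by transcript length, so the test does not give the error rate for these libraries. Coordinates and longest transcripts came from GENCODE M21, promoters from RefSeq on GRCm38.p6. The length correction removed a loess trend on transcript length (span 0.5) from each library. Other alternatives changed the pseudocount, filter, scaling, variance model or libraries. By rule, Wdr62, members called in any comparison, and Trp53, Mdm2, Cdkn1a, Bax, Bbc3, Pmaip1, Bcl2, Bcl2l1 and Mcl1 were given in every library, other members by range, and up to 4 called genes of each further list. Gadd45a, Rrm2b, Trp53inp1, Cflar and Bid (library values) and Chek1, Plk4 and Trp53bp1 were added after their values were seen. The members and lists were chosen with earlier results of these data known. One called further p53 target is counted with its list but is not reported here.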

Additional observations from a re-analysis of the deposited data

Results flagged for a closer look

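Single libraries stood apart from the other 3 of their group in 8 of 126 groups of 4 examined by Dixon's test at the 95% level, which chance alone passes in about 1 group in 20. CON 4 was low for Zmat3 (8.39 TPM, against 19.2 to 21.4), Aen (18.6, against 37.0 to 40.6), Xpc (4.64, against 10.8 to 12.1) and Bid (36.6, against 110 to 122). It was high for Bax (388 TPM, against 243 to 251) and Bnip3 (205, against 48.7 to 67.9). KD 3 was low for Fas (88.3 TPM, against 94.1 to 95.1) and high for Bnip3 (291, against 145 to 156).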

How the results depend on the processing

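Across 3 comparisons, no alternative reversed a called gene: 2603 single-gene results kept their side of the threshold, 122 passed only under the alternative and 115 passed only in the reported fit. Counts below are members or further genes, higher and lower, where they moved by over 1.5 times; the causes were not tested. With no TPM filter 1 member was lower in KD against CON, and of the further genes 5 were higher and 4 lower in KD against CON, 1 higher in RE against KD and 3 lower in RE against CON. With a filter of 5 TPM, 1 member was higher and 1 lower in RE against CON, and of the further genes 1 was higher in RE against KD and 0 lower in RE against CON. With median-of-ratios scaling 1 member was higher in KD and 1 in RE against CON, and of the further genes 5 were higher and 3 lower in KD, 1 higher in RE against KD and 2 lower in RE against CON. With quantile normalization 1 member was lower in KD, and of the further genes 5 were higher and 5 lower in KD, and 6 higher and 2 lower in RE against CON. Over all genes, the shares passing in KD against CON, RE against KD and RE against CON were 9.75%, 0.813% and 6.28% with no filter. They were 8.22%, 0.818% and 4.51% with the filter of 5 TPM. Median-of-ratios scaling gave 13.3%, 0.662% and 9.3%, and quantile normalization 16.2%, 1.39% and 10%. With the compared groups alone 0 members were higher and 0 lower in RE against CON, and of the further genes 3 were lower in KD, 0 higher in RE against KD, and 1 higher and 0 lower in RE against CON. With robust moderation 1 further gene was higher in RE against KD and 0 lower in RE against CON. Requiring a log2 difference of 1 left 1 member higher in KD and 0 higher in RE against CON, and of the further genes 0 lower in KD and 1 higher in RE against KD. With array weights the members gave 6 higher and 13 lower in KD, 4 and 15 in RE against KD and 14 lower in RE against CON, and the further genes 17 and 36, 15 and 26, and 9 and 34, while 54.6%, 45.1% and 54.2% of all genes passed. With the length correction 6 members were higher and 2 lower in KD, and of the further genes 9 and 8 in KD and 9 and 5 in RE against CON. Without CON 4, RE 1 and RE 3, 4 members were higher and 8 lower in KD and 7 lower in RE against CON, and of the further genes 8 and 26 in KD, 0 higher in RE against KD, and 5 and 17 in RE against CON. In the order used above, the shares of all genes were 11.2%, 0.416% and 3.47% with the compared groups alone. Robust moderation gave 9.95%, 0.917% and 6.18%, and the required difference 5.89%, 0.671% and 4.45%. The length correction gave 21.5%, 2.11% and 12.9%, and omitting CON 4, RE 1 and RE 3 gave 39.6%, 0.534% and 32.4%.

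Leaving out each library in turn gave 1 to 3 members higher and 0 to 3 lower in KD against CON, 0 to 1 and 0 to 6 in RE against KD, and 0 to 3 and 0 to 14 in RE against CON, the highest counts coming without CON 4. In that fit 20.4%, 23.8% and 52.8% of all genes passed in these comparisons. The further genes gave 2 to 6 and 0 to 9, 0 to 6 and 0 to 15, and 1 to 8 and 0 to 32. The Wdr62 difference ranged from -1.88 to -1.56, from -0.09 to 0.16 and from -1.83 to -1.51 in the same order.

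With the replicate number of KD and RE as a block, 15 of all genes passed in RE against KD. The same fit of all 12 libraries without the block gave 123. The block gave 0 members and 0 further genes higher; with the length correction as well 24 genes passed (0 further genes higher). The deviations of same-numbered KD and RE libraries from their group means correlated at -0.554, 0.652, 0.239 and -0.252. Such deviations were ordered by transcript length, so these values cannot decide whether the numbers pair the libraries. No paired analysis was possible for comparisons with CON because the control columns carry no labelled number. Depth is unknown, so the precision of low genes such as Pmaip1 could not be set from counts.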
